A study of Mus musculus with 20 samples.

Results

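The circadian clock of the liver drives daily rhythms in transcription, and much of its effect on metabolism passes through output and accessory factors that sit beside its core loop. Here 9 such genes were described by symbol: the PAR bZIP activators Dbp, Tef and Hlf, the bZIP repressor Nfil3, the nuclear receptor Rora, the repressors Ciart, Bhlhe40 and Bhlhe41, and the phosphatase gene Noct. All 9 were found in both RNA-seq tables, of 56884 genes in the male table and 18149 in the female table. The male table held 26580 genes with a mean of 0, while the smallest mean in the female table was 6.61. A gene of low level may therefore be absent from the female table. All 9 also passed the minimum used here, a mean of at least 10 normalized counts in both tables, which left 16283 genes.

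The study asked what loss of midnolin, a nuclear protein encoded by Midn, does to transcription and chromatin accessibility in mouse liver. Its 20 samples were livers of mice aged 11 to 14 weeks with no further treatment. RNA-seq covered 3 WT and 3 Midn-T livers of each sex, and ATAC-seq, which reads open chromatin by transposase insertion, covered 2 WT and 2 Midn-T livers of each sex. WT mice were labelled Midn XTR, the allele with an invertible gene-trap cassette that is still expressed, and Midn-T mice were labelled Midn TR, the trapped state. Trapping was driven by Cre under the Albumin promoter, which is active in hepatocytes, so other liver cells could keep an intact transcript. The time of day at which livers were taken was not given in the sources used here, and the level of most of these genes depends on it.

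For each gene and sex, the value used was the authors' mean normalized count over the 6 libraries of that sex, WT and Midn-T pooled. It carries no spread between libraries and no value per genotype. No error, no test and no comparison of Midn-T with WT was therefore possible from it, and every difference between sexes is a description of pooled means. The male and female tables were normalized separately. Sex, table, any difference between the sexes in time of day and any effect of Midn-T that differs by sex cannot be told apart. Over all 16283 genes the median female over male log2 ratio was 0.05, with the 5th percentile at -0.49 and the 95th at 0.75. Midn itself had a mean of 1672 in males and 1357 in females. These means include the Midn-T libraries, in which the paper reports loss of the exons after the trap. They are therefore neither WT levels nor levels of intact transcript.

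The sex labels were checked on sex-linked genes. Xist, the RNA that silences an X chromosome, had a mean of 72478 in the female table and 14.0 in the male table. The Y-linked Kdm5d, Uty, Ddx3y and Eif2s3y had means between 964 and 3147 in the male table and were not listed in the female one. All 5 hepatocyte markers (Alb, Apoa1, Ttr, Cps1, Tat) were present in both tables at 16185 or more normalized counts per kb of exon. Markers of Kupffer cells (5), sinusoidal endothelial cells (4), stellate cells (4), cholangiocytes (4), lymphocytes (3) and erythroid cells (3) were all above the minimum too, as in whole tissue. The median female over male log2 ratio was -0.10 for the hepatocyte list, 0.00 for Kupffer, 0.23 for endothelial, 0.38 for stellate, 0.58 for cholangiocyte, 0.18 for lymphocyte and 0.33 for erythroid markers. Only the stellate and lymphocyte lists kept to a single direction. Ratios were under 1 for 3 of 5 hepatocyte, 2 of 5 Kupffer, 1 of 4 endothelial and 1 of 4 cholangiocyte markers. The hepatocyte list ran from -0.67 (Tat) to 0.43 (Alb). The erythroid list split too, with Hba-a1 at 0.33 and Hbb-bs at 0.45. Alas2, the erythroid enzyme of heme synthesis, was at -2.24, a wider gap than that of any member. The part of these cells in the ratios below was not tested. In whole tissue, fewer cells of a type and less RNA per cell cannot be told apart.

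DBP, TEF and HLF are closely related leucine zipper activators that bind D-box elements and drive rhythmic genes of drug and lipid metabolism. NFIL3 binds the same elements and represses. RORA activates through the ROR element, which the REV-ERB repressors encoded by Nr1d1 and Nr1d2 also bind, while BHLHE40, BHLHE41 and CIART act against CLOCK and BMAL1, the activators that bind E-boxes. Nocturnin, the product of Noct, is a rhythmic enzyme linked to lipid metabolism that dephosphorylates NADPH.

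The promoter matches are shown first, for the E-box, D-box and ROR element named above and a further element, the CRE. Windows ran from 250 bases before to 50 after each RefSeq start (GRCm38.p6), and 8 of 9 members had an entry. The entry of Bhlhe40 was missing. Both strands were searched for the E-box CACGTG, the D-box TTATGCAA, TTATGTAA, TTACGTAA or TTACATAA, the ROR/REV-ERB core TAGGTCA or TGGGTCA, and the CRE TGACGTCA. TTATGTAA and TTACATAA are reverse complements of each other, and each place was counted once. An E-box was present for 3 members, a ROR/REV-ERB core for 1, a CRE for 1 and a D-box for 0. These counts are per gene, over 8 members with 9 promoters (Tef has 2), while the shares that follow are per promoter. Over all 32851 RefSeq promoters the shares were 7.15% for the E-box, 6.45% for the ROR/REV-ERB core, 1.79% for the CRE and 1.78% for the D-box. A match is a run of letters and not evidence of binding. The matched windows of 30 bases follow, 5′ to 3′ on the gene's strand, with the motif in capitals and positions from an exact match to GRCm39.
Ciart, minus strand, chr3:95789639-95789668: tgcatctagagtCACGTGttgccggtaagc
Ciart, minus strand, chr3:95789581-95789610: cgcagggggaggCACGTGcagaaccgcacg
Ciart, minus strand, chr3:95789567-95789596: cgtgcagaaccgCACGTGtctgggaggggg
Bhlhe41, minus strand, chr6:145811282-145811311: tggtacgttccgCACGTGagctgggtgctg
Tef, plus strand, chr15:81686735-81686764: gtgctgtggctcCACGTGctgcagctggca
Tef, plus strand, chr15:81695465-81695494: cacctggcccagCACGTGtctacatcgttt
Nfil3, minus strand, chr13:53135069-53135098: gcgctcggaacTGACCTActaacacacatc
Hlf, minus strand, chr11:90281734-90281763: ggtgcgggcccTGACGTCActcttgtcagg

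Ciart held 3 E-boxes, beginning 116, 58 and 44 bases before its start. The last 2 are close enough that the third window printed for Ciart overlaps the second. Bhlhe41 held 1 E-box at 153 bases before its start, and each of the 2 starts listed for Tef held 1, at 127 and 138 bases. The core in Nfil3, 12 bases before its start, reads as the reverse complement of TAGGTCA, and the CRE of Hlf lay 9 bases before its start. The windows of Dbp, Noct and Rora held none of these words. Most of these RefSeq starts lie inside the gene as GENCODE M39 draws it: by 3252 bases for Noct, 1935 for Nfil3, 451 for Ciart, 284 for Bhlhe41, 159 for Dbp, 18 for Hlf, and 252 and 8993 for the starts of Tef, while that of Rora coincides with it. All 250 upstream bases lie in annotated exons for Noct, Nfil3 and the first start of Tef, as do 239 for Bhlhe41, 169 for Ciart, 159 for Dbp and 18 for Hlf. The absence of a match for Noct therefore concerns a window well inside the annotated gene.

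Levels of different genes were compared as the mean normalized count per kb of exon, using the union of annotated exons. By this measure 7 of 9 members lay above the 80th percentile of the 12962 protein-coding genes in the male table, and 5 in the female table. The median over the members was 442 in males and 324 in females, against 77.9 and 78.8 over protein-coding genes. With no spread between libraries, it cannot be said which neighbours in the order differ.

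Bhlhe40 stood first in both tables, at 1178 normalized counts per kb in males and 1182 in females. Dbp followed at 1078 and 1053, and Tef at 1005 and 885. The 3 lay at percentiles 95.1, 94.7 and 94.3 in males and 95.2, 94.5 and 93.6 in females. Scaled to the longest transcript instead, Dbp stood first in both tables, since its exon union (3470 bases) is longer than its longest transcript (1890 bases) by a wide margin. At the other end, Bhlhe41 was at 51.3 in males and 27.7 in females, and Nfil3 at 83.0 and 55.8, near or below the median of protein-coding genes.

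**Figure D1:**
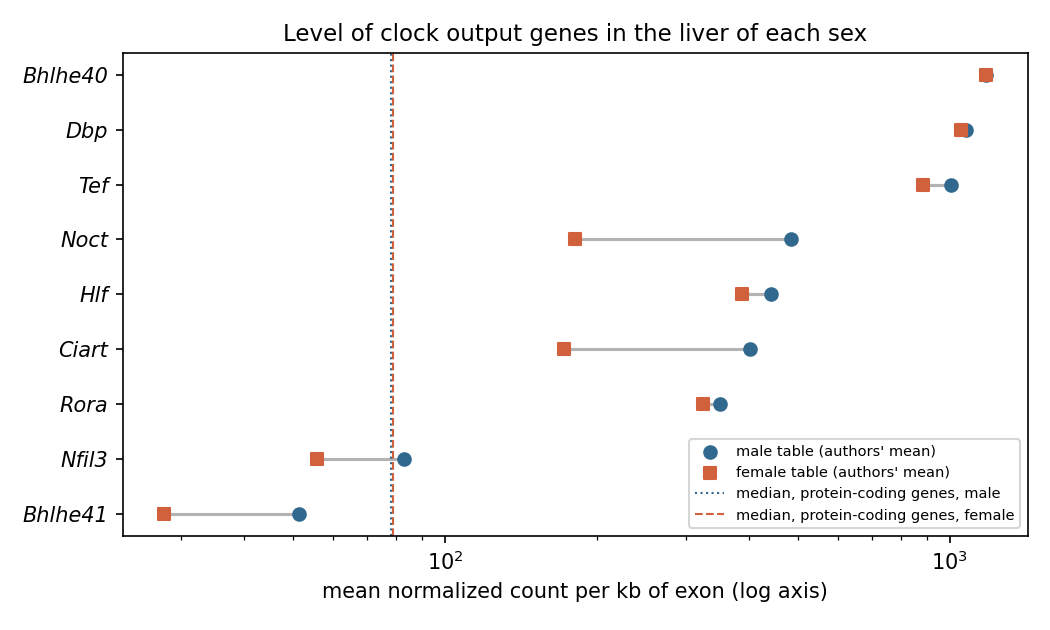
Authors' mean normalized count per kb of exon (log axis) of each gene in the male (circles) and female (squares) tables, with the median of protein-coding genes of each table as a line. Bhlhe40, Dbp and Tef lie near 1000 in both tables, and the widest gaps between the sexes are those of Noct and Ciart.

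The PAR bZIP activators differed little between the tables. Dbp (chr7:45354512-45359627, GRCm39) had a mean of 3742 in males and 3655 in females, a female over male log2 ratio of -0.03. Tef (chr15:81686622-81711064) had 8299 and 7309, a log2 ratio of -0.18. Hlf (chr11:90227221-90281761), the least abundant of the 3 per kb, had 3065 and 2679, a log2 ratio of -0.19. All 3 ratios were a little under 1 and lay at percentiles 37.4, 19.3 and 18.3 of the ratios of all genes.

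Nfil3 (chr13:53121245-53137010), the repressor at the same D-boxes, was the scarcest of the bZIP genes, with a mean of 411 in males and 276 in females. The log2 ratio was -0.57, or 1.49-fold higher in males, just inside the 1.5-fold mark, and lay at percentile 3.81 of all genes. Ratios between genes within a table do not depend on how the tables were scaled. Dbp, Tef and Hlf summed exceeded Nfil3 by 30.4-fold per kb in males and 41.7-fold in females. The female value was 1.37-fold the male value.

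Rora (chr9:68561068-69295528), a gene of 734 kb with 12 annotated transcripts, had a mean of 5074 in males and 4696 in females, a log2 ratio of -0.11. Per kb it was at 351 and 324. Against Nr1d1, which encodes the repressor REV-ERB alpha at the same element, Rora stood at 0.520 in males and 0.234 in females. The difference between those ratios came mostly from Nr1d1, whose mean was 2185 in males and 4500 in females.

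The E-box repressors parted in 2 ways. Bhlhe40 (chr6:108636626-108644502) had a mean of 7486 in males and 7506 in females, a log2 ratio of 0.00. Its paralog Bhlhe41 (chr6:145803969-145811430) had 368 and 198, a log2 ratio of -0.89, or 1.85-fold higher in males. Ciart (chr3:95785815-95789991) had 1047 and 448, a log2 ratio of -1.22, or 2.34-fold higher in males. Bhlhe40 exceeded Bhlhe41 by 22.9-fold per kb in males and 42.7-fold in females, and exceeded Ciart by 2.94-fold and 6.87-fold.

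Noct (chr3:51128616-51159065) had the lowest female over male ratio of the 9 genes. Its mean was 5643 in males and 2111 in females, a log2 ratio of -1.42, or 2.67-fold higher in males, at percentile 0.700 of all genes. Dbp over Noct per kb was 2.23 in males and 5.82 in females. In GENCODE M39, other genes overlap Noct (Gm38357), Nfil3 (Gm61212) and Rora (Gm67737 and Gm68352) on the same strand. If the authors' earlier annotation holds them too, reads on exons that 2 genes share may have gone uncounted.

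In all, 3 of 9 members (Ciart, Bhlhe41 and Noct) had a female mean at least 1.5-fold under the male mean, against 3.67% of all 16283 genes. In the other direction 0 of 9 members passed 1.5-fold, against 8.7% of all genes. With the means as reported, the ratio was under 1 for 8 of 9 members and for 6928 of the 16283 genes. Under either other scaling it was under 1 for 9 of 9 members, since Bhlhe40 lay so near 1. Those scalings lower the ratio of every gene, and the count over all genes was not taken under them. The median log2 ratio over the members was -0.19. The members were listed with earlier results of these data known, and no test was made of these counts.

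**Figure D2:**
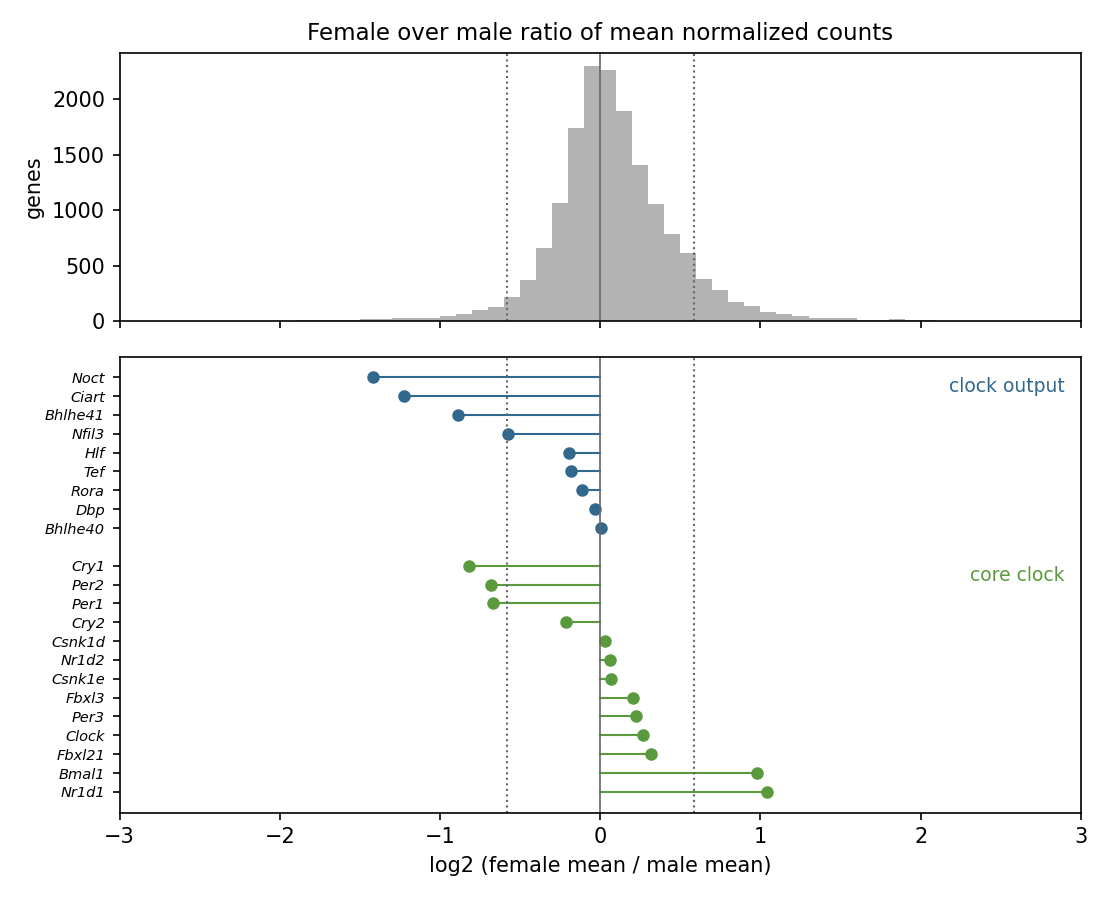
Female over male log2 ratio of the authors' mean normalized counts, as a histogram of all genes with a mean of at least 10 in both tables (top) and for each clock output and core clock gene over that minimum (bottom), with dotted lines at 1.5-fold. Noct, Ciart and Bhlhe41 lie to the left of the lower line, at -1.42, -1.22 and -0.89, while Bhlhe40 and Dbp lie near 0.

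Of 15 core clock genes, 13 passed the minimum in both tables, and the counts and extremes below are of these 13. The female mean was at least 1.5-fold under the male mean for 3 of them, against 3.67% of all 16283 genes. It was at least 1.5-fold over it for 2, against 8.7% of all genes. The median log2 ratio was 0.07. The lowest ratio was that of Cry1, a repressor of CLOCK and BMAL1, with 330 in males and 187 in females and a log2 ratio of -0.82. The highest was that of Nr1d1 at 1.04. Bmal1, at 55.6 in males and 110 in females, was the lowest per kb in males (4.80), and Nr1d1 was the highest per kb in both tables (674 and 1388). In females the lowest was Fbxl21 (8.20).

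Of 6 liver genes placed downstream of the PAR bZIP factors, all passed the minimum. At least 1.5-fold lower in females were 2, against 3.67% of all genes, and at least 1.5-fold higher were 2, against 8.7%. The median log2 ratio was -0.14. Cyp2b10, a drug-metabolizing cytochrome P450, had the highest ratio, with a mean of 209 in males and 1686 in females, and was the lowest of the list per kb in both tables. Cyp7a1, the rate-limiting enzyme of bile acid synthesis, had the lowest ratio, with 12920 and 7110 and a log2 ratio of -0.86. Cyp2a5 was the highest per kb in both tables, at 15726 and 14368. The list spread in both directions, and the log2 ratios of Dbp, Tef and Hlf lay between -0.19 and -0.03. Whether the list follows these factors was not tested.

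**Figure D3:**
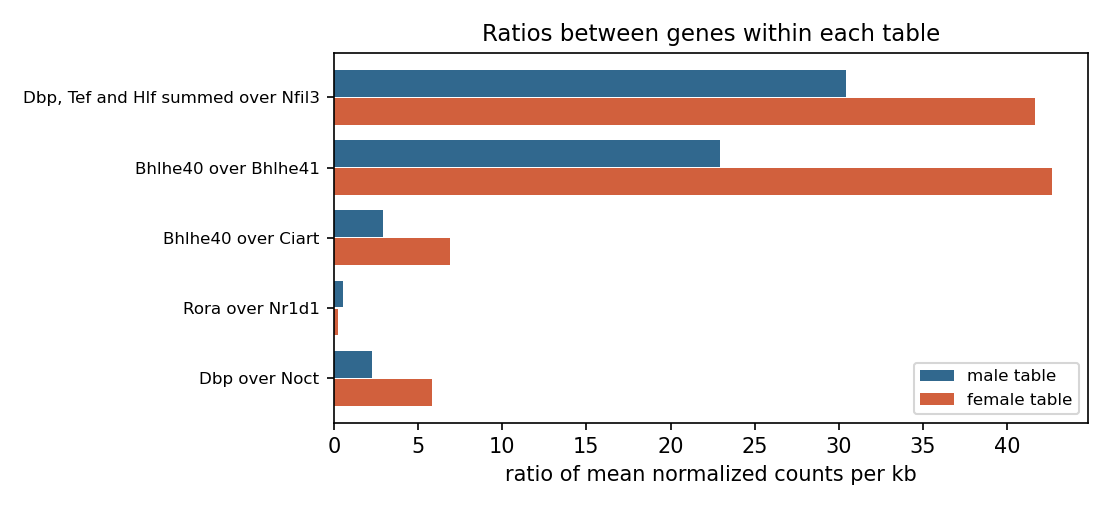
Ratios of mean normalized counts per kb between genes of the same table, for the male and female tables (bars start at 0). The bars for Bhlhe40 over Bhlhe41 reach 22.9 in males and 42.7 in females, and those for Dbp, Tef and Hlf summed over Nfil3 reach 30.4 and 41.7.

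The ATAC-seq lists give positions of 500-base windows that the authors listed as differing between WT and Midn-T, 217 in females and 179 in males. The female list was cut at a false discovery rate, and the male list at an unadjusted P value, which the study's methods call exploratory. The titles of 5 of 8 ATAC-seq samples go against their library names in sex or genotype, and the sample groups given above follow the library names. The sex of each peak list is the one the authors gave it. Which sample labels they used to build the lists is not known here. Within 100 kb of the gene body, 2 of 9 members had a listed peak, against 6.14% of the 16213 genes with an annotated position. The listed peaks of both members belong to the male list alone, while the share of all genes counts both lists. The paper reports that no male peak passed the false discovery rate cut used for females.

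Noct had 2 listed peaks. One, chr3:51140920-51141419, lies in an intron of Noct, centred 12.6 kb after its annotated start, and also within Gm38357. The other, chr3:51109950-51110449, lies in no annotated gene, 18.2 kb before the start. The peak at Bhlhe40, chr6:108645270-108645769, lies in no annotated gene, 768 bases past the gene's end. Their GC contents were 51.2%, 51.4% and 62.8%, against a median of 52% over all 396 listed peaks. The nearest listed peaks of the other 7 members were 253 kb away for Ciart and at least 880 kb for the rest.

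The central 300 bases of the 3 peaks are shown on the plus strand of GRCm39, since they are the only listed regions near these genes, with motif matches in capitals.
Noct intron, chr3:51141020-51141319: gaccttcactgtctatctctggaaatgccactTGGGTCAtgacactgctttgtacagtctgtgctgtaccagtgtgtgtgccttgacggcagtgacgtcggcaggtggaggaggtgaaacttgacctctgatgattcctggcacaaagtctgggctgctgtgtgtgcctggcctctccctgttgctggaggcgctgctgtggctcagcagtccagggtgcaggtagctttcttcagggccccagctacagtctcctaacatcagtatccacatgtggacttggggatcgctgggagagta
Noct upstream, chr3:51110050-51110349: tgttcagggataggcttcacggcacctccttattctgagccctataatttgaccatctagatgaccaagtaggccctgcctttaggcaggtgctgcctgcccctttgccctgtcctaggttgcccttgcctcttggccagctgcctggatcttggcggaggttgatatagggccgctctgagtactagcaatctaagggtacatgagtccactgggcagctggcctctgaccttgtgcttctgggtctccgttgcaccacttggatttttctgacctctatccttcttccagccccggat
Bhlhe40 downstream, chr6:108645370-108645669: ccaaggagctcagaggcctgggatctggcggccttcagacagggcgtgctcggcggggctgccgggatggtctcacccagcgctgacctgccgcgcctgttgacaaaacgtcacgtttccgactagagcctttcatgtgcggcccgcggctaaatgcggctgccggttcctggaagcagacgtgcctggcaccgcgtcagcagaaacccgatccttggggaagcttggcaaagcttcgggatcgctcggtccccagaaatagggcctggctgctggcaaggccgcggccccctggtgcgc

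The peak in the Noct intron held 1 ROR/REV-ERB core over its whole 500 bases, the word TGGGTCA, and the other 2 peaks held no match to any motif searched. Over all 396 listed peaks, 14.9% held a ROR/REV-ERB core, 12.1% an E-box, 3.54% a D-box and 2.27% a CRE. The lists give no read count per library, so no accessibility level can be set beside the RNA level of Noct or Bhlhe40.

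**Figure D4:**
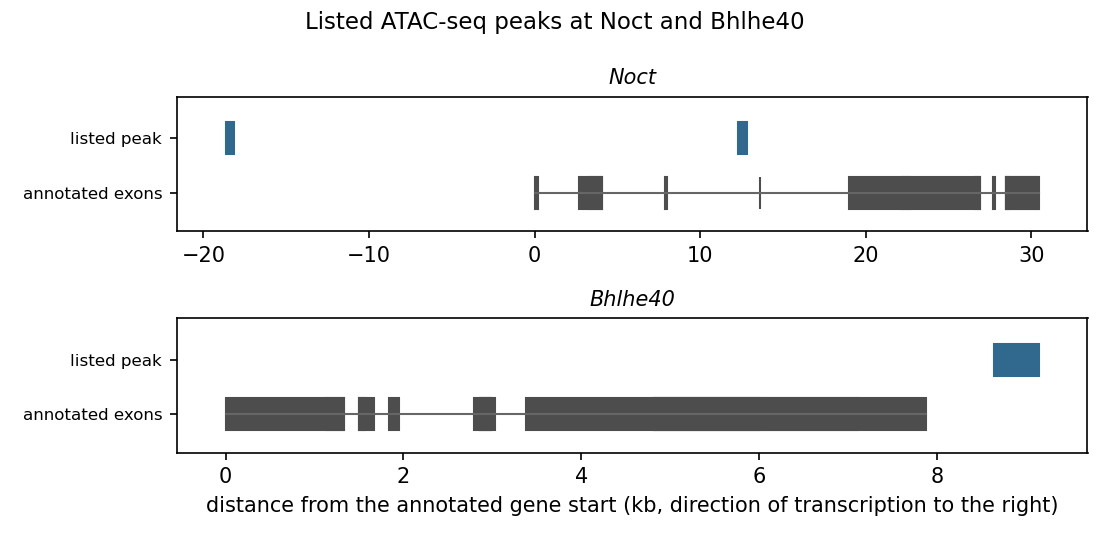
Listed male ATAC-seq peaks (upper boxes) and annotated exons of all transcripts (lower boxes) of Noct and Bhlhe40, by distance from the annotated gene start in kb. The peak inside Noct is centred 12.6 kb after the start between exons, and the peak at Bhlhe40 lies 768 bases past the gene's end.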

How the data were processed

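Alignment by the authors used STAR (version 2.7 in the submitters' processing notes) and GRCm39. After ribosomal RNA depletion, uniquely mapped RNA-seq reads were assigned to Ensembl genes with HTSeq by strand. The authors ran DESeq2 within each sex. From these tables, the deposited signal used was the mean normalized count per gene over 6 libraries. The other deposited columns hold the authors' fold changes, standard errors and p-values for Midn-T over WT, and the peak lists a direction. None was used. Depth per library is not given. The authors called ATAC-seq peaks with MACS2, merged them, and compared read counts in 500-base windows with edgeR. Peak positions were read as counted from 0 and are printed counted from 1. The convention is not stated.

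Tables were joined on gene ID in Python 3.11.15 with pandas 2.3.3. Sequences were read with pyfaidx 0.9.0.4. Exon lengths came from GENCODE M39, a later release than the authors', so lengths may differ. Motif search was tested on simulated data. Named genes were the members, Midn, the sex check, the extremes of the core clock and downstream lists, and genes holding a listed peak near a member. Cell type markers, overlapping genes and Nr1d1 were named beside results they touch, and Alas2 after its value was seen. Members and lists were chosen with earlier results of these data known. One gene of the core clock list is not reported here and was left out of its counts.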

Additional observations from a re-analysis of the deposited data

How the results depend on the processing

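With tables centred on the median of all genes, or each divided by its sum, Nfil3 also passed 1.5-fold and the count of members lower in females went from 3 to 4, while the share of all genes went from 3.67% to 4.31% and 3.93%. At 2-fold it was 2 (Ciart and Noct), against 1.39% of all genes. Under these scalings the log2 ratio of Bhlhe40 changed sign, from 0.0039 to -0.047 and -0.019, so that 9 of 9 members in place of 8 lay under 1. Both scalings lowered the ratio of every gene, so more of all genes lay under 1 as well. No ratio past 1.5-fold changed sign. The counts of 7 and 5 members above the 80th percentile, a mark set after the levels were seen, were the same under every ranking tried. Ranked among genes of like level, an alternative chosen after seeing the data, the ratio of Dbp moved to percentile 45.3 and that of Bhlhe40 to 50.4. With 10 kb in place of 100 kb, 2.08% of genes and 2 members had a listed peak, and with 500 kb 19.7% and 3 members. Windows from 500 before to 100 after the annotated GENCODE start were also searched. The members with a D-box numbered 1 (Ciart), with a ROR/REV-ERB core 2 (Dbp and Bhlhe41) and with an E-box 2 (Ciart and Bhlhe40). The shares in the same windows of 16212 genes were 3.57%, 12.1% and 12.8%. A CRE was again held by 1 member (Hlf), against 2.60%. Ciart held 1 E-box in place of 3, and the E-boxes of Tef and Bhlhe41 and the core of Nfil3 were not found. These windows lie around other starts. The planned protein identity comparison was not run, as no protein table was used here. No paired analysis was possible because the values are pooled means over libraries.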
